A study of Mus musculus with 9 samples.

Results

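Of 124860 accessible chromatin regions of the mouse mammary gland, 563 peaked in the basal cells of mid pregnancy. ATAC-seq inserts sequencing adapters where DNA is open, with the transposase Tn5, so that the number of reads over a region follows how open it is. The members were chosen by the measured signal in all 9 libraries: a region was one when its log2(signal + 1) in the pregnancy basal library lay at least 1 above that in each of the other 8 libraries and its signal there was at least 20. These 563 regions are 0.451% of all regions. The height of the pregnancy basal signal over the others is therefore a description of the members and was not tested. The regions carry running numbers only. Genes, positions and sequences were therefore not analysed here, and the label basal could not be checked against marker genes.

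Basal, ER+ luminal and ER- luminal cells, where ER is the oestrogen receptor, were sorted by FACS from glands at 3 stages (puberty, adulthood and mid pregnancy), and each of the 9 combinations had 1 library. All mice carried the genotype ERrtTA/TetOCre/rosaYFP, which names an ER-linked tetracycline transactivator, a Cre under a tetracycline operator and a YFP reporter at the Rosa locus. The labels used here give no other genotype, age, day of pregnancy, doxycycline treatment or number of mice, so pooled animals cannot be told from single ones. Depth over the regions was 2186941 reads in the pregnancy basal library, the shallowest, 2641254 and 3418164 in the pregnancy ER+ and ER- luminal libraries, while the 6 libraries of puberty and adulthood held 6679907 to 11328189. The values are reads divided by a library factor. A single read was worth 2.199 units in the pregnancy basal library and 0.526 to 1.70 units in the others, so the minimum of 20 units needed 10 reads in that library.

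Basal cells form the outer layer of mammary ducts and alveoli, contract under oxytocin to eject milk, and contain cells with stem-like capacity in transplantation. In pregnancy, progesterone and prolactin drive side branching and alveolar growth, and basal cells come to form an open basket around the new alveoli. Regions that open in one cell type at one stage are often enhancers, distal elements that bind transcription factors and act on genes that may lie far away.

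In the pregnancy basal library the members had a median signal of 41.8, with quartiles of 30.8 and 57.2 and a range of 22.0 to 178. In reads this was a median of 19, from 10 to 81. They were of moderate height: their median stood at percentile 76.4 of all regions in that library. Before pregnancy the same regions had middling basal signal, in libraries where the rule capped their values. Their median was 12.7 in the puberty basal library (range 0 to 81.5) and 13.4 in the adult basal library (range 0 to 83.7). Both medians lay near the middle of all regions, at percentiles 47.4 and 47.2. The other regions with at least 20 units in pregnancy basal cells were higher there, with medians of 47.5 and 57.6 (percentiles 78.7 and 78.5).

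In luminal cells the members were low. At puberty ER- luminal cells had a median of 3.58 and ER+ luminal cells one of 1.58, percentiles 19.8 and 12.3 of all regions in those libraries. In adults it was 5.94 and 2.57, percentiles 28.5 and 15.2. Pregnant glands had medians of 9.10 for ER- and 8.48 for ER+ luminal cells, percentiles 35.0 and 26.5. The order of the medians thus ran from pregnancy basal over adult and puberty basal to the pregnancy luminal libraries and then the earlier ER- and ER+ luminal libraries. The ranges of the members overlapped between all libraries, and with 1 library per group neighbours in this order have no replicate spread to be set against. No read was found for 108 members (19.2%) in the puberty ER+ luminal library and for 88 (15.6%) in the adult one. In each of the earlier basal libraries this held for 2 members (0.355%). Of all regions, 2.81% and 3.01% had no read in these ER+ luminal libraries, and 1.16% and 1.74% in the puberty and adult basal libraries. The rule capped the members' values in each of these libraries. A count of 0 allows up to 3 reads, worth 1.58, 2.57, 2.37 and 2.37 units in the puberty ER+, adult ER+, puberty basal and adult basal libraries.

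**Figure D1:**
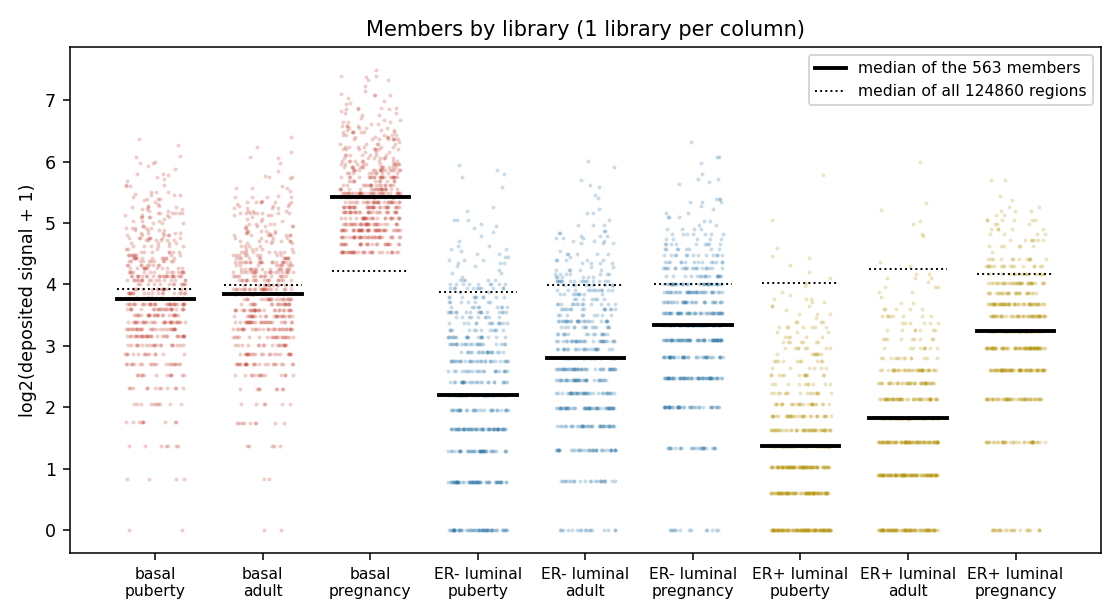
Signal of the 563 members in each of the 9 libraries, on the y axis as log2(deposited signal + 1). Each point is a region, the solid bar is the median of the members and the dotted bar the median of all 124860 regions. The members sit above the dotted bar in the pregnancy basal library by choice, close to it in the earlier basal libraries (medians of 12.7 and 13.4) and below it in all 6 luminal libraries.

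The earlier basal level was intermediate rather than absent. The mean of the puberty and adult basal signal was 13.0 at the median member, with quartiles of 9.09 and 19.8. It lay between 10 and 20 in 244 members, between 5 and 10 in 144, and between 20 and 40 in 115. Only 24 members had an earlier basal mean of 40 to 80, 36 had one under 5, and none had 80 or more, although 19423 of all regions did. Both earlier basal libraries were under 5 in 16 members, 2.84%, against 12.6% of all regions. The share of regions that were members was 0.964% at an earlier basal mean of 10 to 20, 0.574% at 5 to 10, 0.594% at 20 to 40 and 0.181% at 40 to 80. Most members thus had some signal in basal cells before pregnancy. The rule held both earlier basal values at least 1 log2 unit below pregnancy basal, so the choice itself favours lower levels. It also asked for 20 units in pregnancy basal cells, which works against very low levels. Over all regions with an earlier basal mean of 2 to 5, the upper quartile in pregnancy basal cells was 11.0. The intermediate level and the low share under 5 are thus partly set by the rule.

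Compared with the mean of both earlier basal libraries on the log2 scale, the members were 1.56 higher at the median, with quartiles of 1.36 and 1.89. All regions had a median of 0.04, and 17% of them stood at least 1 log2 unit higher. Over all regions the step fell with the starting level. Regions with an earlier basal mean under 2 had a median step of 1.37, those at 10 to 20 of 0.13 and those at 80 or more of -0.58. The regions were grouped by the same earlier basal signal that the step subtracts, so a fall is partly built into this comparison. A single read in the pregnancy basal library, worth 2.199 units, also exceeds any earlier basal mean under 2. Nothing is therefore read from this fall beyond its values. The pregnancy basal library had a narrower range of values. There the 90th percentile was 23.0 times the 10th, against 39.8 and 59.0 times in the puberty and adult basal libraries. The part of this narrower range in the members' step was not tested. From puberty to adulthood the members showed no common direction in basal cells: 277 were higher in the adult and 284 lower, with a median log2 difference of -0.0035 and quartiles of -0.39 and 0.40.

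**Figure D2:**
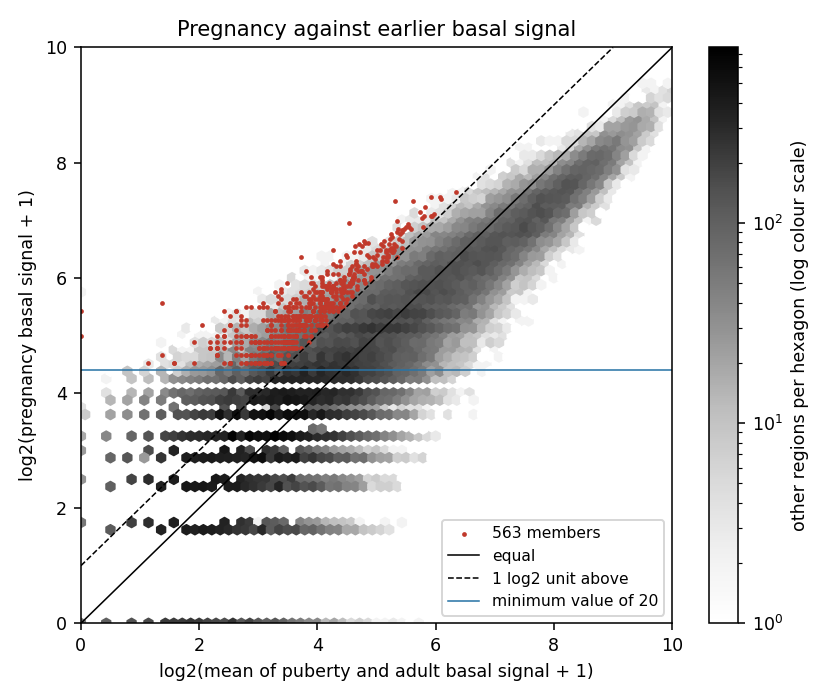
Pregnancy basal signal (y axis) against the mean of the puberty and adult basal signal (x axis), both as log2(signal + 1), with all other regions as grey hexagons and the 563 members in red; regions beyond 10 on either axis are not shown. The members lie above the dashed line, 1 log2 unit over equality, and above the blue line at a signal of 20, with most earlier basal means between 5 and 40.

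The brightest member, region merged26111, had reads in every library and shows a modest gap. Its signal was 178 in the pregnancy basal library, from 81 reads, 83.7 in the adult and 76.0 in the puberty basal library. In ER- luminal cells it was 37.3, 51.3 and 66.7 at puberty, in adults and in pregnancy, and in ER+ luminal cells 10.5, 7.70 and 40.7. The puberty and adult ER+ luminal values lay below the medians of all regions there, 15.25 and 17.96. The pregnancy basal value was thus 2.13 times the next highest, with a 95% counting interval of 1.58 to 2.87. This interval, like those below, is exact for reads as independent counts. It covers counting error only, not PCR copies or differences between mice. The log2 gap of merged26111 was 1.08 as deposited. With reads of all libraries thinned once to equal depth it was 0.82, under the rule's threshold of 1. After quantile normalization it was 1.55.

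The widest gap belonged to a dim region, merged73014. It had 41.8 units from 19 reads in the pregnancy basal library, and 4.75 and 5.52 units from 6 and 7 reads in the puberty and adult basal libraries. In ER- luminal cells it had 0.717, 4.46 and 1.52 units at puberty, in adults and in pregnancy, and in ER+ luminal cells 0, 0.855 and 5.09. It was low in all 8 other libraries. The ratio to the adult basal library, the next highest, was 7.56, with a 95% counting interval of 3.05 to 21.3.

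Wide gaps were rare among the members. The median gap to the highest other library was 1.21 on the log2 scale, 158 members lay within 0.1 of the threshold of 1, and 14 reached a 4-fold gap. The last member inside the threshold had 48.4 units against 23.7 in the adult basal library, a log2 gap of 1.0009. The first region outside it had 77.0 units against 38.0 in the puberty basal library, a log2 gap of 0.99986, and 215 regions at 20 units or more lay within 0.1 below the threshold. A further 95 regions had the gap but fewer than 20 units, the highest of them 19.8.

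Among the 14 members with a 4-fold gap, 1 was bright and is described here by its rank, since it was singled out after its values were seen. It ranked 12th by gap and shared the fifth highest signal, 161 units in the pregnancy basal library. Both earlier basal libraries had 38.8 and 38.7 units, and the luminal libraries lay between 10.8 and 30.8. Its ratio to the highest other library was 4.14, with a 95% counting interval of 2.84 to 6.07, and since the region was picked for this ratio the interval describes its precision and tests nothing. Another member, the ninth by signal, was almost level elsewhere, with 42.4 to 62.4 units in the 8 other libraries and 136 in pregnancy basal cells. It was 1 of 10 members with at least 10 units in all 8 other libraries, 1.78% of the members, against 31.4% of all regions. The rule capped these 8 values in the members but not in all regions, so the low share follows in part from the choice.

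A few members had hardly any reads before pregnancy. In 2 of them neither earlier basal library held a read. The first had 30.8 units in the pregnancy basal library from 14 reads, 4.55 in pregnancy ER- luminal, 5.09 in pregnancy ER+ luminal and 1.49 in adult ER- luminal cells, with no read in the other 5 libraries. The second had 41.8 units from 19 reads, with 13.7 and 13.6 in the pregnancy ER- and ER+ luminal libraries, and no read in any of the 6 puberty and adult libraries. Of the members, 3 had at most 3 reads in each of those 6 libraries, 0.533%, against 0.151% of all regions. Here too the rule capped the members' values.

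Because the pregnancy basal library was the shallowest, the members were set against the number that read noise would give. If reads in that library scattered as Poisson counts around the highest of the other 8 values in each region, the rule would pass 244.5 regions, 43.4% of the 563. This rate takes each region at its highest level elsewhere. Around the mean of the earlier basal libraries 16.9 regions would pass, and around the mean of the 8 other libraries 2.04. A rate predicted for pregnancy basal cells from additive effects in the other 8 libraries, added after seeing the data, would pass 7375, far more than were observed. The noise count around the highest other value varied with the reads of a region. At 10 to 14 reads 159 members stood against 150 given by the rate of the highest other value, and at 15 to 19 reads 136 against 65.9. At 20 to 29 reads there were 161 against 26.5, at 30 to 39 reads 54 against 2.24, and at 40 to 81 reads 53 against 0.221. These noise counts hold counting scatter alone.

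**Figure D3:**
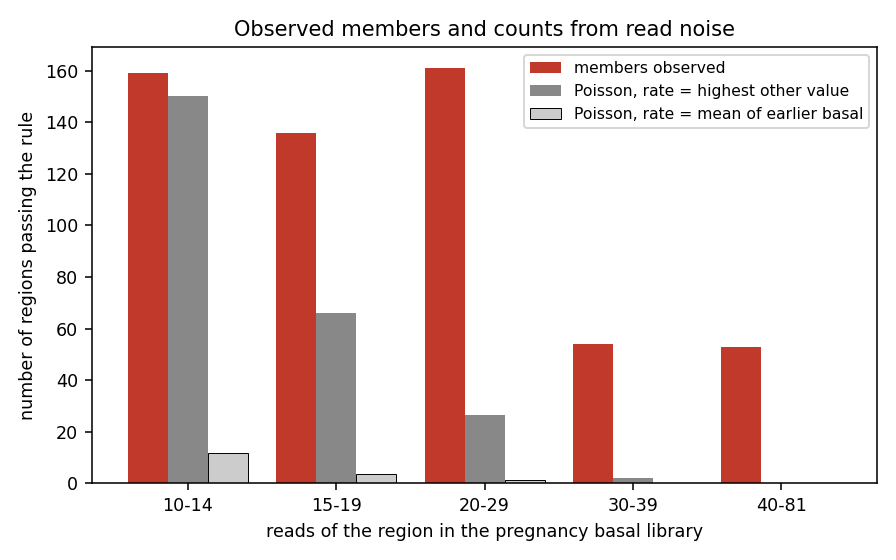
Number of members by their reads in the pregnancy basal library (red), beside the number of regions that Poisson noise would carry past the same rule when the rate is the highest of the other 8 values (dark grey) or the mean of the earlier basal libraries (light grey). The red bar is as high as the dark grey bar at 10 to 14 reads (159 and 150) and stands clear of it from 20 reads upward. With negative binomial scatter around the highest other value, not drawn, more regions than members would pass in every class.

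Counting noise is the smallest scatter that libraries can have. In edgeR's estimate, with cell type and stage as terms, the 8 other libraries had a dispersion of 0.114, equal to a CV of 33.8%, which holds real interactions as well as differences between libraries. With that scatter in a negative binomial model, 253.6 regions would pass around the earlier basal mean and 2416 around the highest other value, more than the 563 observed. Split by reads, the latter rate gave 417 regions at 10 to 14 reads and 407 at 15 to 19. It gave 526 at 20 to 29 reads, 284 at 30 to 39 and 782 at 40 or more, against 161, 54 and 53 members. The members were thus fewer than this count in every class of reads. Without a second pregnancy basal library, the scatter between libraries and a change in pregnancy basal cells cannot be told apart for the single region.

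For single members the reads fixed the gap only loosely. The members were chosen on these ratios, so the intervals describe precision and do not test the gap, and with enough reads a lower limit above 1 follows from the choice. The lower limit of the 95% counting interval of the ratio to the highest other library lay above 1 in 470 members, above 1.5 in 103 and above 2 in 11. It lay above 1 in 80 of the 159 members with 10 to 14 reads, in 122 of 136 with 15 to 19 reads, and in all 268 with 20 or more. Against both earlier basal libraries pooled, the ratio had a median of 3.04 over the 561 members with a read there, and its lower limit lay above 1 in 559 members and above 2 in 144.

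The same rule was applied to each other library in turn. It found 1309 regions peaking in adult basal cells, 1.05% of all regions, and 136 in puberty basal cells, 0.109%. In pregnancy 446 regions peaked in the ER- and 524 in the ER+ luminal library, 0.357% and 0.42%. Puberty and adult ER+ luminal cells had 1205 and 2438, 0.965% and 1.95%, and puberty and adult ER- luminal cells 208 and 136, 0.167% and 0.109%. Poisson counts around the highest other value would give 56.8 and 111 regions in the pregnancy ER- and ER+ luminal libraries and at most 3.65 in any puberty or adult library. As a share of the regions observed, this was 43.4% in the pregnancy basal, 21.2% in the pregnancy ER+ luminal and 12.7% in the pregnancy ER- luminal library. With reads of all libraries thinned once to 2186941, 575 regions peaked in pregnancy basal cells, 361 of them among the 563, against 1775 in adult and 326 in puberty basal cells.

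**Figure D4:**
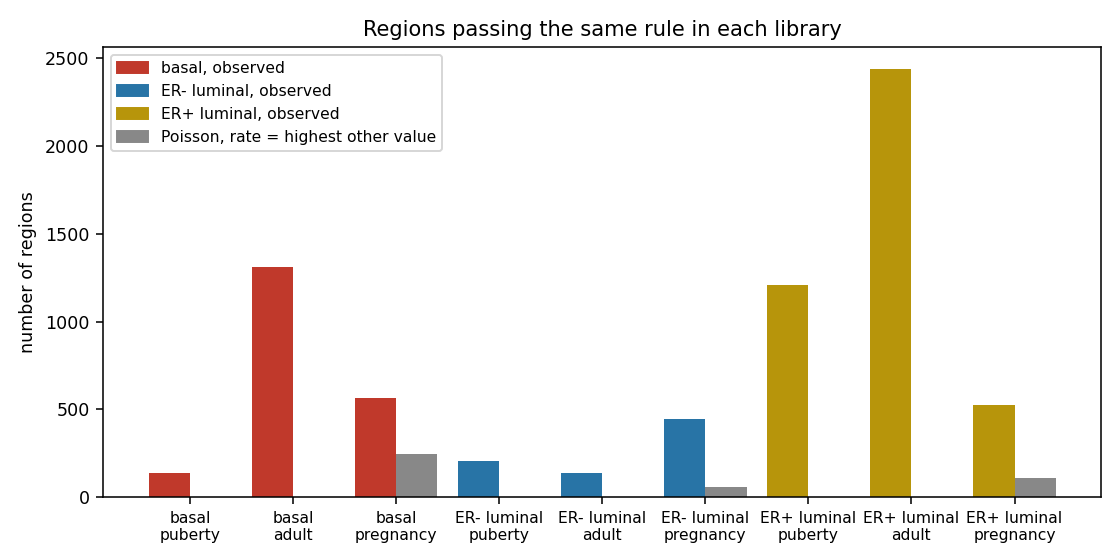
Number of regions that pass the same rule in each of the 9 libraries (coloured bars, y axis) beside the number from Poisson noise around the highest other value (grey bars). The pregnancy basal library has 563 observed and 244.5 from noise, while the grey bars of the 6 puberty and adult libraries are at most 3.65.

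The runner-up of a member was mostly another basal library. The highest of the other 8 values was in puberty basal cells for 204 members and in adult basal cells for 189. Together this was 69.8%, against 29% of all regions and 45.2% of the other regions with at least 20 units in pregnancy basal cells. The highest value was in pregnancy ER- luminal cells for 73, in pregnancy ER+ luminal cells for 50 and in one of the 4 earlier luminal libraries for 47. A runner-up of the same cell type was also common for regions peaking in other libraries. It was found for 69.9% in puberty basal, 77.5% in adult basal and 63.2% to 78.3% in the earlier luminal libraries. In the pregnancy ER- and ER+ luminal libraries the shares were 46.0% and 33.6%. The 393 members followed by a basal library had medians of 44.0 in pregnancy basal, 15.04 in puberty basal and 15.8 in adult basal cells, and 1.05 to 5.20 in the earlier luminal libraries. The 123 followed by a pregnancy luminal library had 37.4 in pregnancy basal cells, 8.71 and 9.47 in the earlier basal libraries, and 12.1 and 10.2 in pregnancy ER- and ER+ luminal cells. Their medians in the pregnancy luminal libraries lay above those of the earlier basal libraries. This order largely follows from grouping the members by the library of their highest other value. The same grouping shapes the order in the other groups. The 47 followed by an earlier luminal library had 33.0 in pregnancy basal cells, 7.92 and 8.68 in the earlier basal libraries, and 9.32 and 11.9 in puberty and adult ER- luminal cells.

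The other 8 libraries were compared among themselves. The rule used their values too, since each had to lie at least 1 log2 unit below pregnancy basal, so the counts of calls here describe the members and do not test them. With limma, fitted to all 124860 regions with cell type and stage as additive terms, basal cells, now from puberty and adults alone, were compared with luminal cells. Of the members, 253 were called more accessible in basal cells (44.9%, Benjamini-Hochberg adjusted p under 0.05 over all regions), against 15.8% of all regions. None was called less accessible, against 10.1% of all regions. At an unadjusted p under 0.05 limma had 0 members lower, as had edgeR and DESeq2 at the adjusted threshold. The median log2 difference was 1.82 in the members and -0.07 in all regions, and 542 of the 563 members were on the basal side. The rule asked for a signal of 20 in a basal library, and basal libraries resemble each other, so the choice favours this direction. It also capped every basal and luminal value, while no such cap holds in the regions set beside the members. Of the other 52874 regions with at least 20 units in pregnancy basal cells, 27.9% were called higher in basal cells, and their median was 0.32.

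Both earlier basal libraries lay above all 4 earlier luminal libraries in 373 members, 66.3%, against 20.8% of all regions and 32.8% of the other regions with at least 20 units in pregnancy basal cells. All 4 earlier luminal libraries were under 5 units in 181 members, 32.1%, against 4.69% of all regions. Region merged26111 was among those called, with a log2 difference of 1.93 (SE 0.42) and basal above luminal at puberty and in adults. Region merged73014 was not, with 1.58 (SE 0.82). The count of members called rested on few libraries. Without the puberty basal library it was 2, or 0.355% against 2.35% of all regions, and without the adult basal library 44, or 7.82% against 3.85%. Without the puberty ER- luminal library it was 155, or 27.5% against 12.1%, and without puberty ER+ luminal 144, or 25.6% against 11.3%. In the fits without puberty ER- or ER+ luminal no member was called lower, against 5.99% and 5.13% of all regions. The median difference stayed between 1.64 and 2.03 in all 4 fits. Where a single basal library was left, it was assumed to vary like the other groups.

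The second contrast in these 8 libraries was between pregnancy and the mean of puberty and adulthood, with pregnancy present in the luminal libraries alone. All 6 luminal values were capped by the rule, so the choice favours low luminal values, and nothing is read from this contrast beyond its values. The members' median log2 difference was 1.2, against 0.04 in all regions and 0.0023 in the other regions with at least 20 units in pregnancy basal cells, and 530 of 563 were on the pregnancy side. Limma called 34 members higher (6.04%), against 1.96% of all regions, and 0 lower, against 4.73%. At an unadjusted p under 0.05, limma had 3 members lower, and edgeR and DESeq2 called 0 lower. EdgeR called 20 of 563 members higher (3.55%), against 1.22% of all regions. DESeq2 gave an adjusted p for 265 members and called 27 of them higher (10.2%), against 2.36% of the regions it tested. Of the 34, 30 were also called higher in basal cells. The same overlap was not counted over all regions, so nothing is read from it. Region merged26111 had 1.33 (SE 0.42) and merged73014 0.94 (SE 0.82), and neither was called.

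These calls rested on single libraries, and the share of all regions called moved with them. Without the pregnancy ER+ luminal library a single pregnancy library was left. Limma's calls among the members were then lost, as were most of those over all regions. Without the puberty ER- luminal library 3 members were called higher (0.189% of all regions), without puberty ER+ luminal 2 (0.242%) and without adult ER+ luminal 11 (0.769%). Without the puberty or adult basal library there were 14 (0.897%) and 15 (0.953%). Without the adult ER- luminal library 71 were called higher (3.5%) and 1 lower, and without pregnancy ER- luminal 138 higher (8.78%) and 2 lower. The median difference was 1.72 without pregnancy ER- luminal and 0.78 without pregnancy ER+ luminal, both above 0. The step from adult to pregnancy in the members had a median of 0.53 for ER- and 1.52 for ER+ luminal cells, while all regions had 0.03 and -0.05. Both pregnancy luminal libraries lay above all 4 earlier luminal libraries in 228 members, 40.5%, against 10.1% of all regions. The narrower range of the pregnancy libraries moves with this result: the 90th percentile was 16.3 times the 10th in pregnancy ER+ luminal and 35.0 times in pregnancy ER- luminal cells, against 53.7 to 88.3 times in the earlier luminal libraries, and its part in the result was not tested. Quantile normalization, which gives all libraries 1 range of values, left a median of 0.74 and 22 calls, 3.91% of the members against 2.39% of all regions.

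**Figure D5:**
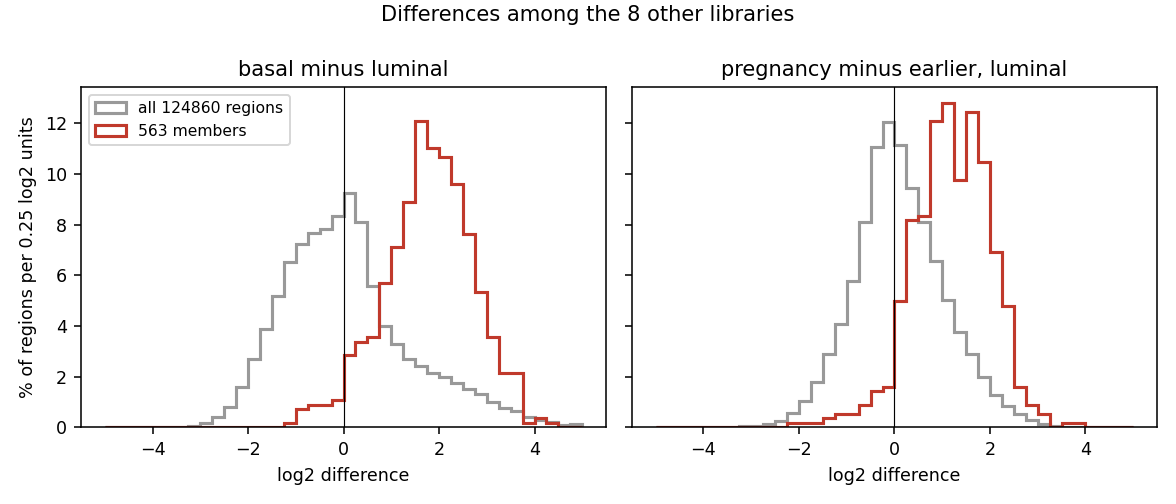
Distribution of the log2 difference between basal and luminal cells (left) and between pregnancy and earlier stages in luminal cells (right) over the 8 libraries without pregnancy basal, as the percent of regions per 0.25 log2 units, for all regions (grey) and the 563 members (red). The members have medians of 1.82 and 1.2, while all regions, whose values the rule did not cap, have medians of -0.07 and 0.04.

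Members were spread over the whole run of numbers. In 10 equal parts of the numbers there were 49 to 76 members. Whether the numbers follow the genome is not stated, but regions with neighbouring numbers resembled each other a little: across regions, which share libraries and are not independent, the log2 step from earlier basal to pregnancy basal had a Pearson r of 0.08 between neighbours and -0.0007 between regions 100 numbers apart. A neighbouring number also belonged to a member for 25 members, 4.44%, against 0.899% of all regions. The 1097 regions next to a member that were not members had a median step of 0.11, against 0.04 in all regions, and 15.9% of them stood at least 1 log2 unit higher, against 17% of all regions. The high pregnancy basal signal was thus mostly not shared by the region with the next number.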

How the data were processed

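ATAC-seq was read from 9 libraries of sorted mouse mammary cells, each from 100000 cells per the labels' protocols. Bowtie2 2.2.6, MACS2 2.1.0.20151222, Picard and SAMtools were used with build GRCm38 (mm10), per the submitters' processing notes. Not given in the sources used here are a shift of reads for the Tn5 cut, the merging of peaks and the normalization. Per region and library, the deposited table gives a normalized signal, without positions or genes. All values (100%) were whole multiples of 1 step per library within 0.02 reads, and the steps were taken as single reads. The median ratio to the geometric mean was 1.0188 in each library, so values were compared as deposited.

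Values were used as log2(value + 1). The 8 libraries without pregnancy basal were fitted with limma 3.58.1 (R 4.3.3, trended prior, 3 residual degrees of freedom, no low-value filter). Its error measures how far libraries depart from additivity, not a spread between mice. EdgeR 4.0.16 (quasi-likelihood) and DESeq2 1.42.0 on the recovered reads were alternatives. Over all regions limma called 19707 higher and 12576 lower in basal cells and 2452 higher and 5900 lower in pregnancy. EdgeR called 19920 and 11615, and 1525 and 3549. Ratio intervals are exact (Clopper-Pearson). Noise counts are summed Poisson or negative binomial probabilities with the other 8 libraries held at their values. Both were checked on simulated data. Named regions are the brightest member and the one with the widest gap. Members, lists and tests were chosen with earlier results of these data known.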

Additional observations from a re-analysis of the deposited data

Results flagged for a closer look

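From puberty to adulthood the members' median log2 step was 0.486 in ER- luminal cells, where 396 of 563 were higher (70.3%). It was -0.00353 in basal cells, where 277 were (49.2%), and 0.282 in ER+ luminal cells, where 342 were (60.7%). Of all regions, 50.5%, 50.8% and 51.5% were higher in ER- luminal, basal and ER+ luminal cells. The ER- luminal and basal medians, 0.49 apart, had opposite signs, although the basal median was almost 0. The difference was not tested, since each median comes from 1 library per stage.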

How the results depend on the processing

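The number of members moved most with the size of the gap asked for and with the earlier basal libraries. It was 1987 for a 1.5-fold gap, 14 for a 4-fold gap and 291 for a minimum of 40 units. Against the earlier basal libraries alone 4202 regions passed, against the pregnancy luminal libraries alone 8826, and against the 6 puberty and adult libraries alone, a check added after seeing the data, 935. Dropping 1 library from the comparison gave 581 to 1340 regions, with 1008 without puberty basal and 1340 without adult basal. Other pseudocounts, a minimum of 10, quantile normalization (752, with 513 of the members) and equal depth stayed within 1.5 times of 563.

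The noise count of 244.5 became 16.9 around the earlier basal mean, 2.04 around the mean of 8 libraries and 2416 with negative binomial scatter. Of 2 rates added later, the median of regions of like earlier basal level gave 68.5, and the additive prediction from the other 8 libraries gave 7375, more than were observed. The 253 members called between basal and luminal cells became 144 to 347 with 1 luminal library left out, against 11.3% to 19.7% of all regions called higher. In the puberty and adult libraries alone there were 345, against 19.6%. Without 1 of the basal libraries, where a single one was left, the count fell further, as given above, with median log2 differences of 1.64 and 2.03. The 34 called in luminal pregnancy, all higher, became 0 to 140 in either direction with 1 library left out (138 higher and 2 lower at the most), 14 with a pseudocount of 0.25, 22 after quantile normalization, 0 without a variance trend and 20 with edgeR. Of all regions, 0.908% were called higher with a pseudocount of 0.25 and 2.39% after quantile normalization, against 1.96% in the main fit. EdgeR called 1.22% of all regions higher. Without a variance trend 4 of 124860 regions were called higher (0.0032%) and 0 lower, so nothing is read from the 0 members there. No paired analysis was possible because each group holds 1 library and the labels carry no replicate numbers.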
